A study of Fundulus heteroclitus with 8 samples.

Results

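Transcripts of keratins, claudins and other proteins of cell contacts were followed in the testis of adult males of the mummichog, Fundulus heteroclitus, a killifish of salt marshes. The 4 DHT50 males had been exposed through the water for 21 days to 5α-dihydrotestosterone (DHT) at 50 µg/L, and the 4 Control males had no DHT (0 µg/L). DHT is a potent androgen that is not converted to estrogen. The sources used here do not say whether the Control water held a solvent. Each male gave 1 single-colour array, and all 8 arrays lay on 1 slide. The submitters call the samples biological replicates, and arrays of the lower dose of 5 µg/L were not analysed here. Members were the non-control probes whose name on the array holds 1 of 15 words, among them keratin, claudin, occludin, cadherin, catenin, connexin, desmoplakin and tetraspanin. This gave 65 of 7157 probes, with 44 product names. The test needed a signal clearly over background (the scanner software's flag) on 4 or more of the 8 arrays, and 55 members had it.

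Tight junctions seal the space between neighbouring epithelial cells, and claudins and occludin are the membrane proteins of their strands. In the testis the Sertoli cells, which nurse the germ cells, are joined to each other by such junctions into a barrier around the later germ cells, and in fish the Sertoli cells of one cyst enclose one clone of germ cells. Desmosomes and adherens junctions hold cells together through cadherins, with plakoglobin, plakophilins, desmoplakin and beta-catenin on the inner side. Keratins are the intermediate filaments that desmosomes anchor, and they are built from pairs of a type I and a type II chain. Gap junctions are channels between cells made of connexins, and tetraspanins organise other proteins in the cell membrane.

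The 65 members fell into 9 keratin filament probes, 21 claudin probes, 1 occludin probe, 8 probes of cadherin, catenin or desmosome proteins, 1 connexin probe, 12 tetraspanin probes and 2 probes of epithelial membrane protein-3. The same words also caught 11 probes of other proteins, namely 7 of keratin-associated proteins, 2 of keratinocyte-associated proteins and 2 of beta-catenin-interacting protein 1. All keratin filament probes were of type I chains. The words tight junction, envoplakin and vimentin matched 0 probes, and both cadherin matches were protocadherins, so several standard parts of the Sertoli barrier were not measured. Names are those of the array design, mostly from the closest protein of another species. Of the 10 sequence accessions among the members 0 matched the reference table of mummichog genes, so no positions in the genome are given.

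No member passed the threshold for a difference between DHT50 and Control males. Limma's moderated test called 0 of 55 members at an adjusted p of 0.05, against 0% of all 5989 tested probes, and the lowest adjusted p of a member was 0.685. At an unadjusted p of 0.05 there were 3 members, or 5.45%, against 4.71% of all tested probes. Of these, 1 was higher in DHT50 males (a tetraspanin 8 probe), against 3.29% of all tested probes, and 2 were lower (keratin 13 and keratin 15), against 1.42%. The 2 keratin probes had similar patterns over the arrays, and whether they bind the same transcript could not be checked, so they may not be independent. The groups did not overlap for 0 of 55 members, against 2.22% of all tested probes. The change was positive (higher in DHT50) for 41 of 55 members, or 74.5%, against 53.6% of all tested probes, and the median log2 change was 0.30 for the members and 0.06 for all tested probes. This split depended on the arrays: with array brightness in the fit 17 members were higher and 38 lower, with 2094 of all 5989 tested probes positive. Without Control 1 and DHT50 2, an array at each end of the brightness range, 25 were higher and 30 lower. As this is whole testis, fewer cells of a type and less RNA per cell cannot be told apart in any of these values.

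**Figure D1:**
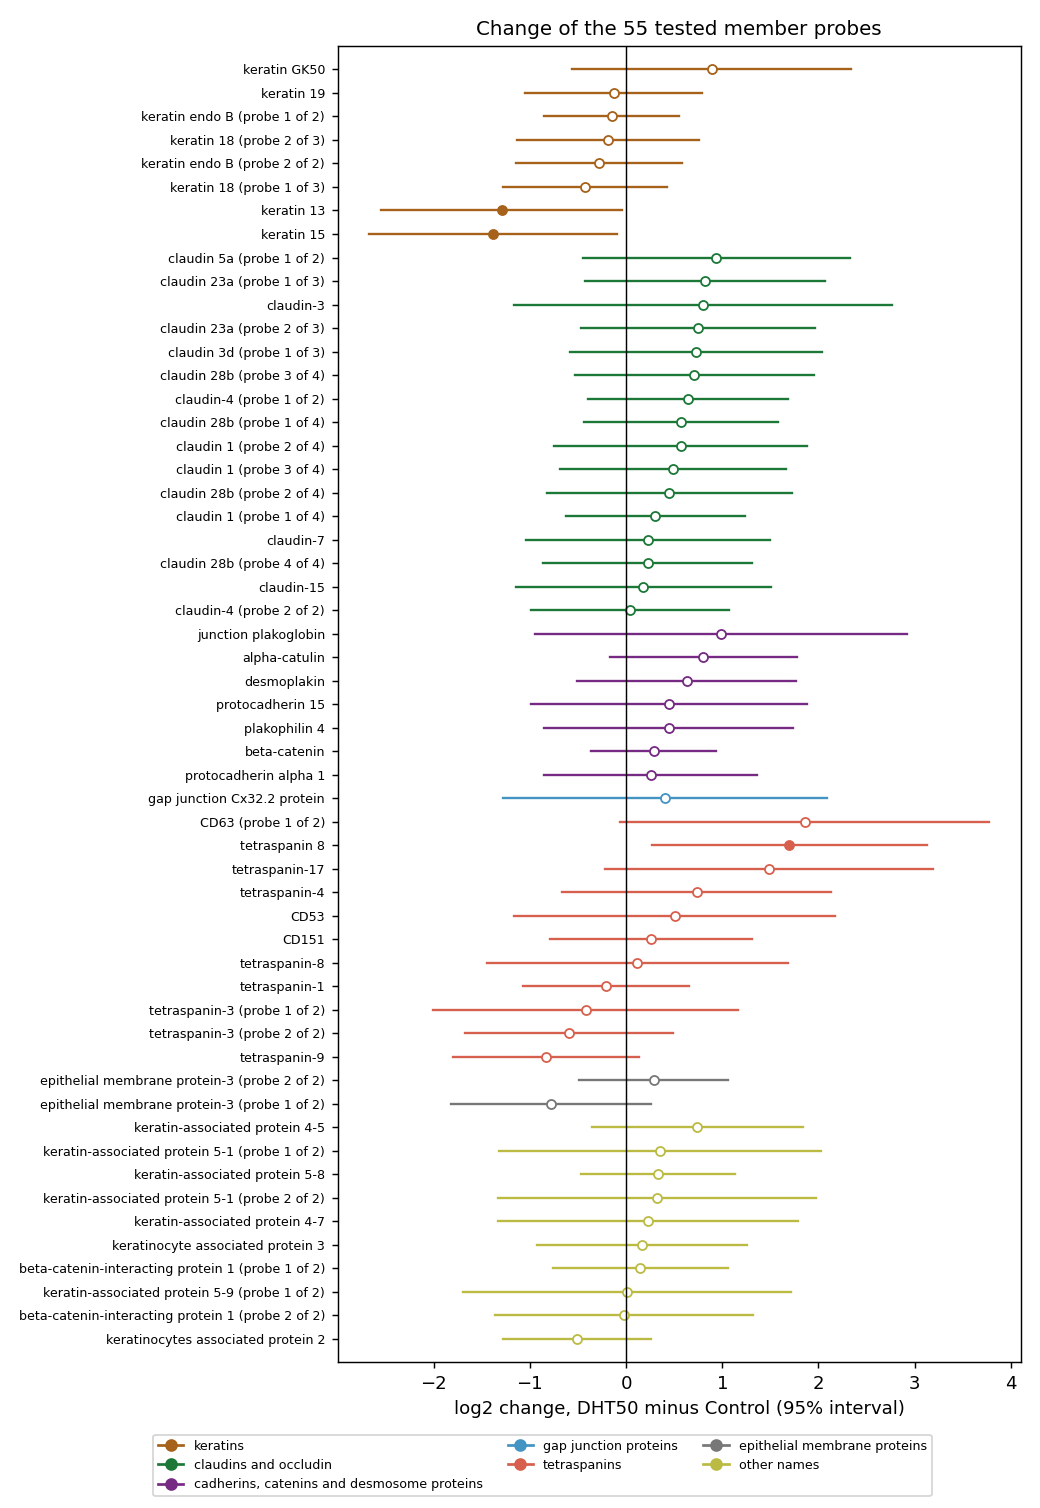
Change of each of the 55 tested member probes, DHT50 minus Control, on the log2 scale, with its 95% interval from the moderated fit; colours mark families, filled points the 3 members at an unadjusted p of 0.05, and probes of a name are numbered from the brightest. All 16 claudin points lie above 0 and 7 of 8 keratin points below it, and only keratin 13, keratin 15 and tetraspanin 8 have intervals that leave out 0.

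Levels below are log2 processed signal minus the 75th percentile of the same array, averaged over the spots of a probe. Levels of different probes were not read as relative amounts of transcript. Where they were subtracted, summed or given as a median, this was to set one array against another. In a summed level the brightest probes weigh most. The percentile itself, the brightness of an array on the log2 scale, was 10.95, 7.97, 9.13 and 9.50 in DHT50 1 to 4, against 11.21, 9.99, 10.09 and 10.03 in Control 1 to 4. DHT50 1 and Control 1 were thus the brightest arrays and DHT50 2 the dimmest. Of the 65 members, 38 were well above background in DHT50 2, against 51 to 54 on the other DHT50 arrays and 53 to 59 on the Control arrays. Slide row 1 held DHT50 1, 2 and 3 with Control 1, and slide row 2 held DHT50 4 with Control 2, 3 and 4. Among markers of the testis, DEAD-box protein 4 (the germ cell helicase vasa), the follicle stimulating hormone receptor of Sertoli cells and the inhibin alpha subunit were well above background on all 8 arrays, with changes of -0.96 ± 0.54, -1.02 ± 0.77 and 0.89 ± 0.42. Of the Leydig cell markers, cytochrome P450 17A1 and the luteinizing hormone receptor were well above background on 3 of 4 DHT50 arrays and steroidogenic acute regulatory protein on 2 of 4, against 4 of 4 Control arrays for each. Their changes, in the same order, were 0.79 ± 0.62, 0.21 ± 0.47 and -0.63 ± 0.57. None of the 8 tested probes of the testis list was called. That list also held other helicases with names similar to DEAD-box protein 4, so not all 8 probes are of testis markers.

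Keratin 13 and keratin 15, which in mammals are type I keratins of stratified epithelia, had the largest negative changes of all members. Keratin 13 had levels of 1.61, 1.31, 1.01 and 2.36 in DHT50 males, against 3.28, 1.67, 4.20 and 2.31 in Control males. DHT50 1, 2 and 3 lay below every Control array, and DHT50 4 lay above Control 2 and close to Control 4. Its log2 change was -1.29 ± 0.56 (SE, 4 males per group), a level 2.45-fold lower in DHT50 males, with a 95% interval from -2.55 to -0.04 (limma adjusted p = 0.685). Keratin 15 had levels of 0.68, -0.48, -0.11 and 1.04 in DHT50 males, against 2.36, 0.48, 2.80 and 1.03 in Control males. Again Control 3 and Control 1 were the highest arrays and the groups overlapped. The keratin 13 level minus the keratin 15 level stayed between 0.92 (Control 1) and 1.79 (DHT50 2) on all arrays. Without probe sequences it could not be checked whether both probes bind the same transcript. For keratin 15 the change was as follows. Its log2 change was -1.38 ± 0.58, or 2.61-fold lower in DHT50 males, with an interval from -2.68 to -0.09 (limma adjusted p = 0.685).

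The other keratins moved less. Keratin 18 and keratin 19 are the type I chains of simple epithelia in mammals, and endo B is the mouse name of keratin 18. The brightest endo B probe had levels of 3.62, 3.10, 3.88 and 3.37 in DHT50 males, against 3.45, 3.60, 4.03 and 3.48 in Control males. These levels were high and even in both groups, and the log2 change of -0.15 ± 0.31 had a 95% interval from -0.85 to 0.55. The second endo B probe was at -0.28, the 2 tested keratin 18 probes were at -0.43 and -0.19, and keratin 19 was at -0.13. The keratin 18 probe at -0.19 was well above background on 1 of 4 DHT50 arrays and 3 of 4 Control arrays. Keratin GK50, another type I chain, was the exception in direction, with levels of -3.14, -0.90, -2.07 and -2.41 in DHT50 males, against -4.46, -3.10, -1.57 and -2.96 in Control males. Its log2 change was 0.89 ± 0.65 (limma adjusted p = 0.685), with the lowest DHT50 level in DHT50 1 and the lowest Control level in Control 1. Over the family 7 of 8 tested keratin probes had a negative change and 1 a positive one, against 53.6% positive of all tested probes. The 2 endo B and 2 tested keratin 18 probes carry names of one gene. Keratin 13 and keratin 15 may share a transcript, so the 7 probes are not independent. The median change was -0.23, against 0.06 for all tested probes. The remaining keratin 18 probe was well above background on 1 Control array alone and was not tested.

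**Figure D2:**
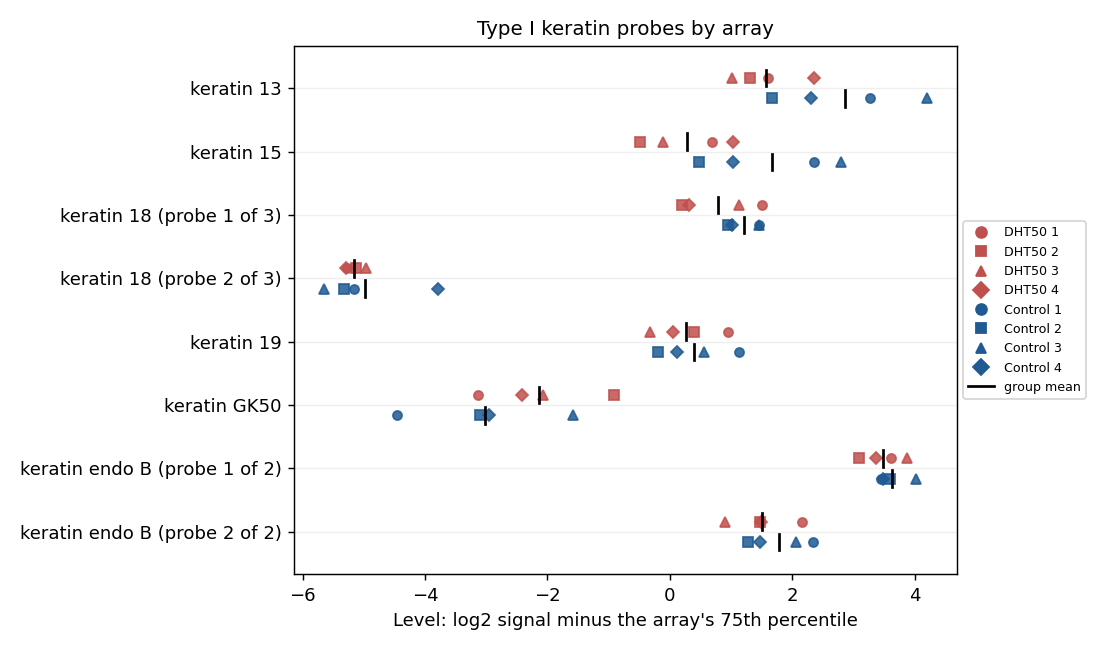
Levels of the 8 tested type I keratin probes on each array (log2 signal minus the array's 75th percentile), DHT50 above Control for each probe, with black bars at the group means. Keratin 13 and keratin 15 are highest in Control 3 and Control 1, while the endo B and keratin 18 and 19 groups overlap closely.

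Keratin 13 kept a negative change when any 1 array was left out, between -1.69 and -0.85, and keratin 15 between -1.78 and -1.01. Within slide row 1 the changes were -1.97 and -2.33, and within slide row 2 they were smaller, -0.36 and -0.40. With array brightness in the fit they were -1.08 and -0.91. Tissue of another kind was looked at beside these values. Transcripts of liver and plasma proteins (48 tested probes) had a summed log2 level of 4.01 to 6.28 in DHT50 males and 4.13 to 9.89 in Control males. Several of these probes share a name, such as those of complement C3-1 and serotransferrin, so they are not independent. By its word pattern the list also took in a mitochondrial electron transfer flavoprotein oxidoreductase. Of the 48 probes 37 were lower and 11 higher in DHT50 males, against 53.6% higher of all tested probes. Their median change was -0.93, against 0.06 for all tested probes. The median level of the list was 0.80 in Control 1, against -2.06, -3.18 and -2.67 in Control 2, 3 and 4. In DHT50 1 to 4 it was -3.72, -1.86, -3.46 and -3.15. The summed levels of Control 2, 3 and 4 lay within the DHT50 range. At an unadjusted p of 0.05 there were 3 lower and 0 higher, against 1.42% lower and 3.29% higher of all tested probes. Control 1 had the highest summed level and also was high for keratin 13 and keratin 15. Control 3, the highest array for both keratins, had a summed level of 4.13. The part of this in the keratin changes was not tested.

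Claudin transcripts had a positive change throughout, with no member past the threshold. All 16 tested claudin probes, from 9 product names, were higher in DHT50 males on average, against 53.6% positive of all tested probes. Their median log2 change was 0.57, against 0.06 for all tested probes, with a range from 0.04 to 0.94. Of the 16 probes, 7 were well above background on all 8 arrays. Several of these probes are named from claudins of the pufferfish Takifugu rubripes, in which the family is larger than in mammals, and probes of one name share a gene or close relatives, so they are not independent. Claudin 5a, whose mammalian relative is the claudin of endothelium and is also found in Sertoli cells, had levels of -4.82, -1.64, -3.15 and -3.71 in DHT50 males, against -5.05, -4.09, -3.98 and -3.94 in Control males. DHT50 2, 3 and 4 lay above every Control array and DHT50 1 lay near the lowest. The log2 change was 0.94 ± 0.62 (limma adjusted p = 0.685).

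Claudin-3, a claudin of the Sertoli barrier that androgen raises in mice, was covered by 1 probe under that name and by 3 probes named claudin 3d. The claudin-3 probe had levels of -5.66, -2.35, -3.09 and -3.57 in DHT50 males, against -6.46, -4.01, -4.70 and -2.69 in Control males. Its groups overlapped widely, and its log2 change of 0.80 ± 0.88 had a 95% interval from -1.16 to 2.76 (limma adjusted p = 0.738). The tested claudin 3d probe was at 0.73 ± 0.59, with levels of -4.85, -2.30, -3.04 and -3.50 in DHT50 males, against -5.20, -3.96, -4.10 and -3.34 in Control males. The other 2 claudin 3d probes were well above background on 0 of 4 DHT50 arrays and on at most 2 Control arrays, and were not tested. Claudin 1, a sealing claudin, had 3 tested probes, with changes of 0.30 ± 0.41, 0.57 ± 0.59 and 0.48 ± 0.52. The last of these was well above background on 1 of 4 DHT50 arrays and 3 of 4 Control arrays. The dimmest claudin 1 probe was well above background on 0 of 8 arrays.

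Among the remaining claudins the brighter claudin-4 probe had levels of -2.26, -0.28, -0.88 and -0.99 in DHT50 males, against -2.49, -1.57, -1.56 and -1.38 in Control males. DHT50 2, 3 and 4 were again above every Control array, and the log2 change was 0.65 ± 0.46 (limma adjusted p = 0.685). The dimmer claudin-4 probe, from another sequence of the design, had the smallest claudin change, 0.04 ± 0.46, and turned to -0.052 with quantile normalization. Both tested claudin 23a probes were near each other, at 0.82 and 0.75, and the 4 claudin 28b probes ran from 0.23 to 0.71. Claudin-7 was at 0.23 and claudin-15 at 0.18. A dimmer claudin 23a probe and a dimmer claudin 5a probe, well above background on 3 and on 1 of the 8 arrays, were not tested. Occludin was well above background on 2 of 4 DHT50 arrays and 0 of 4 Control arrays and was not tested. Its levels were -5.77, -5.06, -5.87 and -4.87 in DHT50 males, against -6.76, -7.07, -5.62 and -4.63 in Control males. The groups overlapped, and Control 4 was the highest array.

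Claudin levels were lowest on the 2 brightest arrays. For 15 of 16 tested claudin probes the 2 lowest arrays were DHT50 1 and Control 1, the 2 brightest, against 29.9% of all tested probes. The median claudin level was -5.35, -3.50, -3.89 and -3.95 in DHT50 1 to 4, against -5.46, -4.75, -4.20 and -4.14 in Control 1 to 4. DHT50 2, the dimmest array, had the highest median, with 8 of its 16 tested claudin probes well above background. The lowest level of any spot well above background was -3.86 in DHT50 2, against -6.83 in DHT50 1 and -7.06 in Control 1. On the other arrays it lay between -5.78 and -4.92. Among Control 2, 3 and 4, whose brightness was nearly equal, Control 2 was the dimmest and had the lowest claudin median. With brightness in the fit 15 of 16 claudin changes were negative, with a median of -0.16, while the median of all tested probes also moved, from 0.06 to -0.13. The median claudin change was 0.17 with normexp background correction, 0.18 without Control 1, 0.36 without DHT50 2 and 0.95 without DHT50 1. Brightness is also the value subtracted from each level, and its part in the claudin changes was not tested further.

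**Figure D3:**
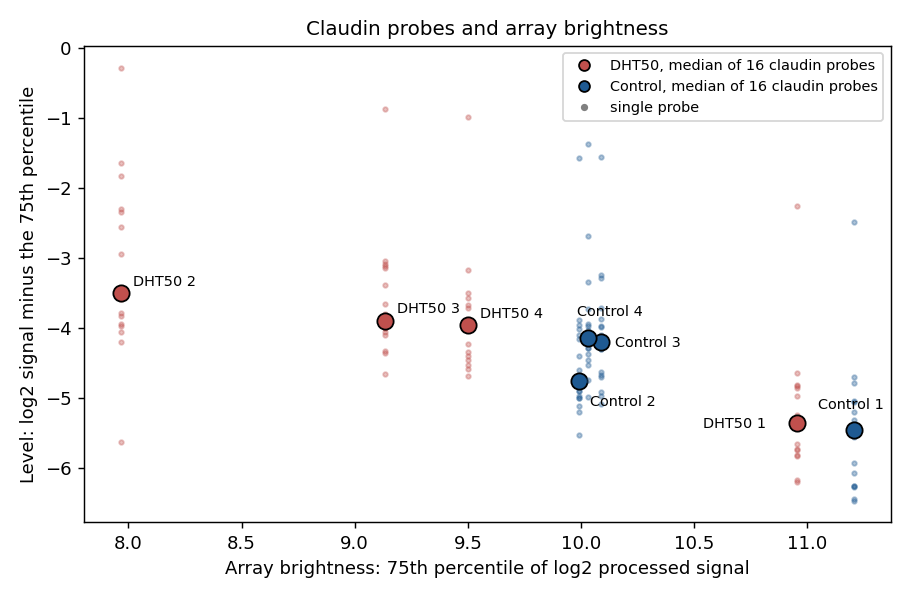
Levels of the 16 tested claudin probes (small points) and their median (large points) on each array, against the brightness of the array, both on the log2 scale. The medians run from -3.50 in DHT50 2, the dimmest array, to -5.46 in Control 1, the brightest, and DHT50 1 lies beside Control 1.

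Desmosome, catenin and protocadherin transcripts had positive changes in 7 of 7 tested probes, against 53.6% positive of all tested probes. Their median was 0.45, against 0.06 for all tested probes, and no member passed the threshold. Junction plakoglobin, which links cadherins to filaments in desmosomes and adherens junctions, had levels of -4.37, -0.21, -2.28 and -1.64 in DHT50 males, against -4.40, -3.68, -2.62 and -1.76 in Control males. It was high in DHT50 2 and lowest in DHT50 1 and Control 1, and its log2 change was 0.99 ± 0.86 (limma adjusted p = 0.696). Desmoplakin, which ties desmosomes to keratin filaments, was at 0.63 ± 0.51, with levels of -2.52, -0.22, -1.58 and -1.16 in DHT50 males, against -2.62, -2.13, -1.30 and -1.96 in Control males. With brightness in the fit these changes were -0.29 and -0.053. In that fit 2 of the 7 probes were higher and 5 lower, with a median of -0.25, against -0.13 for all tested probes.

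Beta-catenin, the partner of cadherins that also carries the Wnt signal, varied little between males. It had levels of -1.52, -1.62, -1.66 and -1.75 in DHT50 males, against -2.33, -1.72, -1.91 and -1.73 in Control males. DHT50 1, 2 and 3 lay above every Control array, but by small steps, and the log2 change of 0.29 ± 0.29 had a 95% interval from -0.36 to 0.94. Alpha-catulin, a relative of alpha-catenin, was at 0.80 ± 0.43, and plakophilin 4, an armadillo protein of junctions, at 0.44 ± 0.58. Protocadherin 15, known from the tip links of sensory hair cells, was at 0.45 ± 0.64 and protocadherin alpha 1, of the clustered protocadherins of neurons, at 0.26 ± 0.49. Plakophilin 3, a desmosome protein of epithelia, was well above background on 0 of 8 arrays and was not tested.

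The single connexin probe, gap junction Cx32.2, had levels of -2.49, -3.56, -4.01 and -4.24 in DHT50 males, against -1.62, -5.17, -4.42 and -4.72 in Control males. Control 1 was the highest array and the other 3 Control arrays lay below every DHT50 array. The log2 change was 0.41 ± 0.75 (limma adjusted p = 0.837). Without Control 1 it was 1.20, and within slide row 1, where Control 1 is the one Control, it was -1.74.

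Tetraspanins held both the largest positive changes of the members and several negative ones. Of 11 tested probes 7 were positive and 4 negative, against 53.6% positive of all tested probes, with a median of 0.26. The probe named from mouse tetraspanin 8, a tetraspanin of epithelia, had levels of -1.60, 0.91, -0.81 and -1.66 in DHT50 males, against -3.41, -2.90, -1.44 and -2.21 in Control males. DHT50 2 and DHT50 3 lay above every Control array, while DHT50 1 and 4 lay below Control 3. Its log2 change was 1.70 ± 0.64, or 3.24-fold higher, with an interval from 0.27 to 3.12 (limma adjusted p = 0.685), and it ran from 1.13 to 2.05 with 1 array left out. It was 0.89 with brightness in the fit and 0.52 within slide row 2. A second probe, named tetraspanin-8 and made from another sequence of the design, was at 0.12 ± 0.70 and was well above background on 1 DHT50 and 3 Control arrays.

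CD63, a tetraspanin of lysosomes and secreted vesicles, had the largest change of all members on its brighter probe. Its levels were 1.20, -1.43, -1.19 and -2.97 in DHT50 males, against -2.73, -4.52, -1.79 and -2.78 in Control males. DHT50 1 was far above the rest and DHT50 4 was within the Control range, and the log2 change was 1.86 ± 0.86, with an interval from -0.06 to 3.78 (limma adjusted p = 0.685). It was 0.057 within slide row 2, 1.09 without DHT50 1 and 2.58 with brightness in the fit. The dimmer CD63 probe was well above background on 3 of 8 arrays and was not tested. Tetraspanin-17, which in humans helps the protease ADAM10 to the cell surface, had levels of -0.72, -3.41, -2.89 and -4.50 in DHT50 males, against -4.19, -5.63, -3.73 and -3.91 in Control males. It was likewise highest in DHT50 1, and DHT50 1, 2 and 3 lay above every Control array, with a log2 change of 1.48 ± 0.76 (limma adjusted p = 0.685). This change was -0.081 within slide row 2 and ran from 0.76 to 2.03 with 1 array left out.

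DHT50 1 was the highest of the 8 arrays for 6 of 11 tested tetraspanin probes, against 781 of all 5989 tested probes. These were CD63, tetraspanin-17, tetraspanin-4, both tetraspanin-3 probes and CD53. CD53, the tetraspanin of leukocytes, had levels of 0.06, -2.98, -2.22 and -3.93 in DHT50 males, against -2.37, -3.47, -2.59 and -2.66 in Control males, and a log2 change of 0.51 ± 0.75, which was -1.02 within slide row 2. DHT50 1 stood far above the other 7 arrays and DHT50 4 was the lowest. A leukocyte list of 56 tested probes was chosen by name after these values were seen, and it also holds transcripts of wider expression, such as B-cell receptor-associated protein 31 and nicotinamide phosphoribosyltransferase. It had a summed log2 level of 4.61 to 5.98 in DHT50 males, highest in DHT50 1, and of 4.84 to 6.65 in Control males, highest in Control 1. In Control 1 C-type lectin superfamily member 9 was at 5.40 and a lysozyme C probe at 3.38, so few probes made up much of that sum. In that list 29 changes were positive, 7 of them at an unadjusted p of 0.05, against 3.29% of all tested probes, and 27 were negative, 0 of them at that p, against 1.42%. Probes named lysozyme g and lysozyme g precursor were both among the 7, so these may not be independent. The part of leukocytes in the tetraspanin levels was not tested.

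The negative tetraspanin changes were led by tetraspanin-9, with levels of -1.65, -3.24, -2.70 and -2.83 in DHT50 males, against -0.99, -2.22, -1.96 and -1.93 in Control males. DHT50 2, 3 and 4 lay below every Control array, DHT50 1 did not, and the log2 change was -0.83 ± 0.43 (limma adjusted p = 0.685). Control 1 and DHT50 1, the 2 brightest arrays, were the highest, and DHT50 2, the dimmest, was the lowest. With brightness in the fit the change was -0.27. The 2 tetraspanin-3 probes were alike, at -0.42 ± 0.71 and -0.59 ± 0.48. The brighter had levels of 0.67, -2.17, -1.18 and -2.59 in DHT50 males, against -0.02, -1.88, -0.52 and -1.18 in Control males, so that DHT50 1 alone stood above the Control arrays. Tetraspanin-1 was at -0.21 ± 0.39 and was well above background on 1 of 4 DHT50 arrays and 4 of 4 Control arrays. CD151, which binds laminin-binding integrins, was at 0.26 ± 0.47, and tetraspanin-4 at 0.73 ± 0.62.

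**Figure D4:**
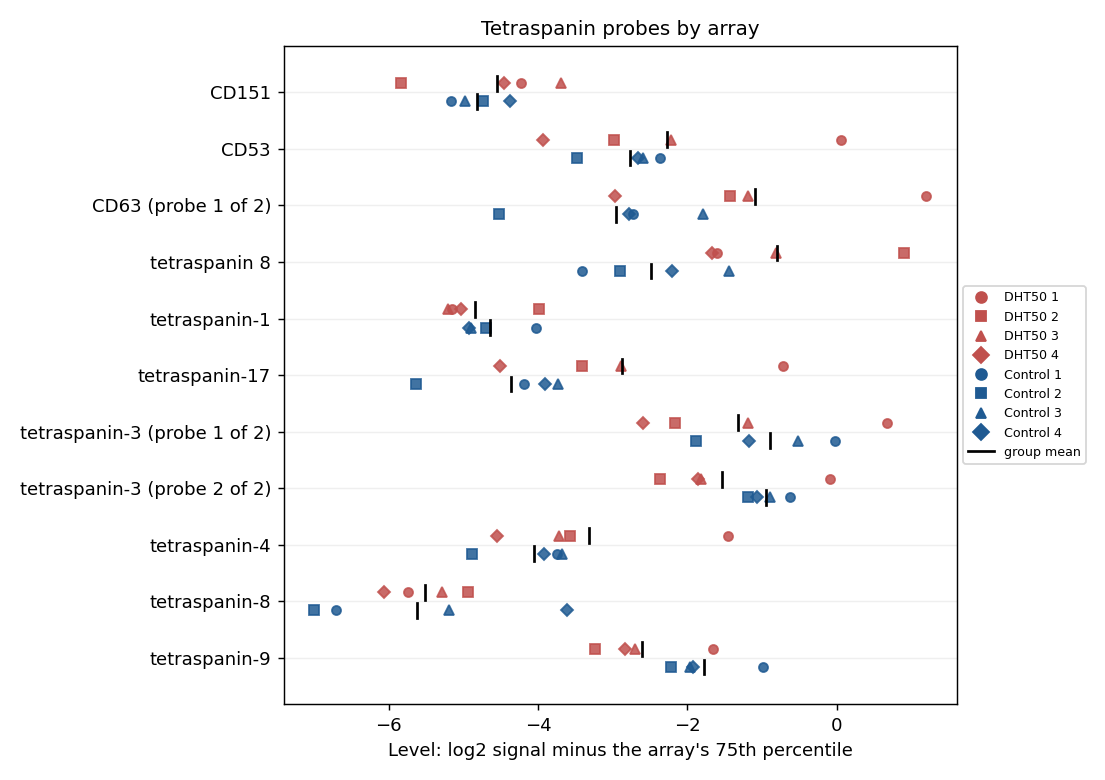
Levels of the 11 tested tetraspanin probes on each array (log2 signal minus the array's 75th percentile), DHT50 above Control for each probe, with black bars at the group means. DHT50 1 (circles) is the highest array for CD53, CD63, tetraspanin-17, tetraspanin-4 and both tetraspanin-3 probes, and DHT50 2 (squares) for tetraspanin 8.

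Epithelial membrane protein-3, a small membrane protein of the family of peripheral myelin protein, had 2 probes that disagreed. The brighter had levels of -3.54, -5.61, -4.50 and -4.81 in DHT50 males, against -3.38, -4.12, -3.54 and -4.29 in Control males. Its log2 change was -0.78 ± 0.46, with 2 of 4 DHT50 arrays well above background. The other was at 0.29 ± 0.35, and both had a limma adjusted p of 0.685 or more.

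Of the proteins that share only a word with the family, the keratin-associated proteins are parts of the mammalian hair shaft, and their probes here carry mammalian names. All 6 tested probes of these had positive changes, from 0.01 to 0.74, against 53.6% positive of all tested probes. With brightness in the fit 1 was higher and 5 were lower, with a median of -0.71, and within slide row 2 the median was -0.13. Keratin-associated protein 4-5 had the largest, 0.74 ± 0.49 (limma adjusted p = 0.685), with levels of -3.13, -1.08, -1.61 and -1.66 in DHT50 males, against -3.44, -2.22, -2.39 and -2.37 in Control males. DHT50 1 and Control 1 were the 2 lowest arrays for all 6. The dimmer keratin-associated protein 5-9 probe was well above background on 0 of 8 arrays and was not tested. Keratinocytes associated protein 2, which in mammals belongs to the enzyme that adds sugars to new proteins, was at -0.51 ± 0.34, with levels of -1.04, -1.17, -0.18 and -0.44 in DHT50 males, against -0.40, -0.45, 0.18 and -0.15 in Control males. Keratinocyte associated protein 3 was at 0.17 ± 0.49. Beta-catenin-interacting protein 1, an inhibitor of beta-catenin in Wnt signalling, was at 0.15 ± 0.40 and -0.02 ± 0.60 on its 2 probes.

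Further proteins of adhesion and filaments outside the word rule gave no call either. Of 32 such tested probes 19 had a positive and 13 a negative change, against 53.6% positive of all tested probes. The median was 0.12, against 0.06 for all tested probes. At an unadjusted p of 0.05 there was 1 probe, against 4.71% of all tested probes. The 2 largest changes in size were negative, in laminin gamma-1 at -2.08 ± 1.15 and in an integrin beta-1 probe at -1.56 ± 0.87. Another integrin beta-1 probe was at -1.26 ± 1.04. All 3 probes were highest in Control 1 and well above background on 2 of 4 DHT50 arrays. By its word pattern this list took in some proteins of other functions, such as ribosomal protein L10 and nicotinamide riboside kinase 2. The 1 probe at an unadjusted p of 0.05 was F-actin capping protein alpha-2 subunit, which caps actin filaments, at 1.34 ± 0.53 (limma adjusted p = 0.685). Moesin, which links actin to the membrane, was at 1.01 ± 0.54 and radixin, its relative, at 0.44 ± 0.38. Plectin 1, which links intermediate filaments to junctions, was at 0.98 ± 0.55 and Lamin B2 of the nuclear envelope at -0.38 ± 0.31. DHT50 2, the dimmest array, was the highest for the capping protein, moesin, radixin and plectin 1. The 2 brightest arrays, Control 1 and DHT50 1, were the lowest for moesin, radixin and plectin 1. The part of brightness in these changes was not tested.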

How the data were processed

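Transcripts were measured on 8 single-colour Agilent arrays, 4 of DHT50 and 4 of Control testis. Intensity values came from Agilent Feature Extraction 10.7.1.1, and spatial and multiplicative detrending fits are listed per the file headers. A deposited log2 table of the same arrays has identical sorted values on every array, as quantile normalization gives, and no source used here names its tool. Log2 intensity minus the array's 75th percentile was averaged over the 2 spots of a probe, leaving out 28 of 114512 readings flagged as outliers. No spot was saturated (0 spots). All 5989 probes well above background on at least 4 of 8 arrays were fitted by limma's lmFit and eBayes (limma 3.58.1 under R 4.3.3). Tests were two-sided, and p-values were adjusted over all tested probes by Benjamini-Hochberg. The fit was also run on simulated arrays with independent noise for each probe. Those arrays held no shared effect of brightness, so that run cannot show how the fit behaves under one. The number of arrays limits the precision: the median SE of a log2 change was 0.45.

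Groups came from the sample titles. Replicate numbers in the labels do not state a pairing. Members and lists were chosen with earlier results of these data known. Named with values are members at an unadjusted p under 0.05, the brightest member and the largest change in each direction of each family, and proteins of the Sertoli barrier; others are given by value or range. Alternatives were normexp (offset 50, on the median spot signal, as the files hold no mean signal), quantile and median normalization, the deposited table, other filters on dim probes, trend and robust moderation, the replicate number or slide row as a block, each row alone, brightness as a covariate, and arrays left out. The leukocyte list was added after seeing the data.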

Additional observations from a re-analysis of the deposited data

Results flagged for a closer look

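Among 52 groups of 4 values, from the 26 named and tested probes, 3 held an array far from the other 3 by Dixon's gap over range, and chance alone flags about 1 in 20 such groups. Protocadherin alpha 1 was at -2.89 in DHT50 1, against -1.40 to -1.19 on the other DHT50 arrays. The brighter claudin 5a probe was at -5.05 in Control 1, against -4.09 to -3.94 on the other Control arrays. Keratin-associated protein 4-5 was at -3.44 in Control 1, against -2.39 to -2.22. All 3 are low values on the 2 brightest arrays. The cause was not tested.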

How the results depend on the processing

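The count of 0 members called at an adjusted p of 0.05 held under every alternative run, and of all 5989 tested probes 106 were called within slide row 1 and 0 under each other alternative. The count at an unadjusted p of 0.05, 3 members, was 0 with normexp (1.35% of all tested probes) and 1 with slide row in the fit (6.56%). That 1 member was tetraspanin-9, which is not among the 3. With brightness in the fit the count was 2 (3.32%), namely CD63 and tetraspanin-17, also not among the 3. The count was 1 without Control 1 and DHT50 2 together (2.67%) and 7, or 12.7%, with the replicate block (9.97%). It ran from 0 to 15 with 1 array left out: 0 without DHT50 2, 1 without DHT50 3 and without Control 1, 5 without DHT50 4, and 15 without DHT50 1, where 23.2% of all tested probes passed too. The median member change of 0.30 was 1.16 within slide row 1, 0.057 within slide row 2 (29 higher and 26 lower) and 0.09 to 0.61 with 1 array left out, lowest without Control 1. Without Control 1 and DHT50 2 together it was -0.078. It was -0.11 with brightness as a covariate. Each slide row holds a single array of one group, which the fit within that row takes to vary like the others. Same-numbered DHT50 and Control arrays deviated together with correlations from -0.11 to 0.38. As 1 of the 4 correlations was not over 0.1, the numbers were not taken as pairs, although 5 of 8 arrays correlated best with their own number.

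Among the 26 tested members named by rule, single changes turned as follows. With brightness as a covariate desmoplakin was at -0.053, junction plakoglobin at -0.29, protocadherin alpha 1 at -0.25, claudin 1 at -0.18, -0.26 and -0.23, claudin 3d at -0.15, claudin 5a at -0.029, claudin-3 at -0.47, claudin-4 at -0.0076 and -0.27, beta-catenin-interacting protein 1 at -0.11 and tetraspanin-3 at 0.46. Without Control 1 and DHT50 2 together junction plakoglobin was at -0.078, protocadherin alpha 1 at -0.056, claudin 1 at -0.054, -0.19 and -0.087, claudin-3 at -0.30, the dimmer claudin-4 probe at -0.23 and tetraspanin-3 at 0.15. Gap junction Cx32.2 was at -0.10 with normexp, -0.60 with slide row in the fit and -1.74 within row 1, where the brightest endo B probe was at 0.085. The dimmer claudin-4 probe was at -0.11 with normexp, -0.052 with quantile normalization, -0.058 in the deposited table, -0.17 within row 2 and from -0.20 to 0.44 with 1 array left out. With 1 array left out beta-catenin-interacting protein 1 ran from -0.10 to 0.41 and the brighter tetraspanin-3 probe from -1.09 to 0.0039. Of the other 29 tested members 19 turned with brightness, among them plakophilin 4 (-0.40), protocadherin 15 (-0.49), claudin-7 (-0.57), claudin-15 (-0.65) and keratin 19 (0.19), and 11 within slide row 2, among them tetraspanin-17 (-0.081), tetraspanin-4 (-0.39) and CD53 (-1.02). The cause was not tested. Keratin 13, keratin 15 and tetraspanin 8 kept their direction under every alternative, as did other named members such as CD63, tetraspanin-9 and keratin GK50. The sizes did not hold for all of these. Keratin GK50, at 0.89 in the main fit, was at 0.13 within slide row 2 and at 0.054 with brightness. CD63, at 1.86 in the main fit, was at 0.057 within slide row 2. Tetraspanin-9, at -0.83 in the main fit, was at -0.27 with brightness. Neither keratin 13, keratin 15 nor tetraspanin 8 had an unadjusted p under 0.05 with normexp, or with brightness or slide row in the fit.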
